A study of Mus musculus with 4 samples.

Results

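The genes described here are 10 genes of canonical Wnt signaling. They include 4 ligands (*Wnt2*, *Wnt2b*, *Wnt7b* and *Wnt11*), the secreted agonist *Rspo2* and the effectors *Ctnnb1* and *Lef1*. The others are the feedback genes *Axin2*, *Nkd1* and *Notum*. Of these 10 genes, 1 passed an adjusted p-value of 0.05 between *Myh10*+/+ and *Myh10*-/- lungs, beside 1.64% of all tested genes. This gene was *Nkd1*, at 0.803 times the level of *Myh10*+/+ lungs in *Myh10*-/- lungs. Its adjusted p from edgeR was 0.0475, close to the threshold, and with the size factors of DESeq2 it was 0.0506. The other 9 genes did not pass the test, and the intervals of their differences are given below. The 10 genes were chosen by their symbols, each matched a single row of the 45706 genes in the count table, and all 10 had enough reads to be tested.

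The lungs are left lobes from 2 *Myh10*+/+ (wild-type) and 2 *Myh10*-/- (Myh10L458R/L458R) embryos of the C57BL/6 strain at E17, the saccular stage, without treatment. *Myh10* encodes a heavy chain of non-muscle myosin II. The mutation was induced chemically with ENU, replaces a leucine by an arginine in the motor domain, and is carried in the germline, so that it is present in every cell type of these embryos and not only in the lung. The study reports no alteration in the expression of Wnt pathway components in *Myh10*-/- lungs, and its main text does not name the genes measured.

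In canonical Wnt signaling, a lipid-modified Wnt ligand binds a Frizzled receptor and an LRP co-receptor. This halts the complex of Axin, APC and GSK3 that otherwise marks β-catenin for degradation, and β-catenin then enters the nucleus and acts with TCF/LEF factors on target genes. Several targets, among them *Axin2*, *Nkd1* and *Notum*, encode inhibitors that feed back on the pathway, and their RNA is widely used as a readout of it. In the developing lung, *Wnt2* and *Wnt2b* are ligands of the mesenchyme and *Wnt7b* is a ligand of the epithelium that acts on the mesenchyme around it.

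The reads counted on genes were 23156026 and 19116971 in *Myh10*+/+ lungs and 27573824 and 32055306 in *Myh10*-/- lungs. Both *Myh10*-/- lungs were thus sequenced deeper than both *Myh10*+/+ lungs. The lowest and highest counts of the 10 genes in a lung were 110, for *Wnt2b*, and 37545, for *Ctnnb1*. Levels are given as CPM (each count relative to the total of its lung, scaled between lungs with the TMM method), fold changes are *Myh10*-/- over *Myh10*+/+, and adjusted p-values are from edgeR (quasi-likelihood test), after Benjamini and Hochberg, across all 18763 genes whose mean count reached 5. An adjusted p-value under 0.05 counts as a change. In this test 1.64% of all genes passed (1.34% lower and 0.298% higher in *Myh10*-/- lungs), which is 308 genes, and 1643 genes passed without *Myh10*-/- lung 2. *Myh10* itself was at 505 and 504 CPM in *Myh10*+/+ lungs and at 539 and 513 CPM in *Myh10*-/- lungs, and since the mutation changes a single base this level does not tell the genotypes apart. *Xist*, which is transcribed from the inactive X chromosome of female cells, reached 3910 and 4460 CPM (*Myh10*+/+ lung 1 and *Myh10*-/- lung 2) and was at 1.84 and 4.10 CPM in the other lungs, so each genotype held a lung of either kind. The lungs held RNA of the lung epithelial factor *Nkx2-1* (434 to 455 CPM) and of the lung mesenchymal factor *Tbx4* (213 to 225 CPM).

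To compare the genes with each other, CPM was divided by the length of the merged exons of each gene. *Ctnnb1*, which encodes β-catenin, had the highest level per length of the 10 genes, with 224 to 240 CPM per kb over the 4 lungs. *Wnt2* followed with 39.2 to 44.3 CPM per kb, *Nkd1* with 18.8 to 26.0 and *Axin2* with 10.4 to 11.5. *Wnt7b* was at 7.45 to 8.26 CPM per kb, *Wnt11* at 3.88 to 4.24 and *Notum* at 2.90 to 3.68. The lowest levels were those of *Wnt2b* (1.37 to 2.001 CPM per kb), *Rspo2* (1.26 to 1.96) and *Lef1* (0.724 to 0.874). The ranges of neighbors in this order did not overlap, except those of *Wnt2b* and *Rspo2*, and *Wnt2b* was above *Rspo2* in 3 of 4 lungs. With these lengths, the order of the other genes was thus the same in every lung of both genotypes. Lengths were not reduced for exons shared with a gene on the opposite strand (918 of 2408 bp for *Notum*, 364 of 4137 bp for *Wnt11*). If counting ignored strand, the order of *Wnt11* and *Notum* is uncertain.

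**Figure D1:**
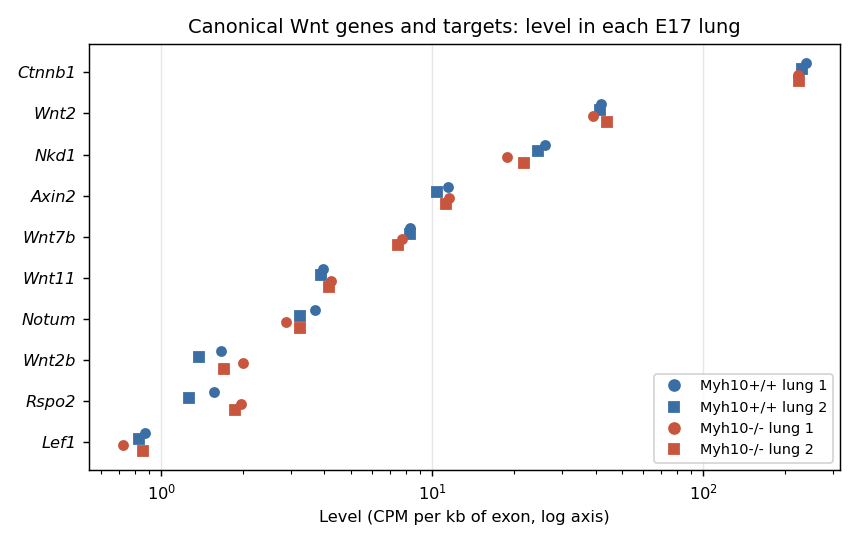
Level of each of the 10 genes in each lung, in CPM per kb of exon on a log axis; blue symbols are the 2 *Myh10*+/+ lungs and red symbols the 2 *Myh10*-/- lungs, with circles for lung 1 and squares for lung 2. *Ctnnb1* lies between 224 and 240 and *Lef1* between 0.724 and 0.874, and among neighbors only *Wnt2b* and *Rspo2* overlap.

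*Wnt2* had the highest level per length of the Wnt genes in these lungs. Of the summed level per length of all 19 Wnt genes, *Wnt2* took 49.9% and 50.1% in *Myh10*+/+ lungs and 50.7% and 52.9% in *Myh10*-/- lungs. *Wnt7b* took 9.85% and 9.92% of this sum in *Myh10*+/+ lungs and 10% and 8.90% in *Myh10*-/- lungs, and over the 4 lungs *Wnt11* took 4.67% to 5.47% and *Wnt2b* 1.65% to 2.58%. *Wnt5a*, a ligand known mostly for signaling without β-catenin, was second with 16.7% to 18.7%. *Lef1* was the smallest part of the TCF/LEF family, with 1.95% to 2.35% of the summed level per length of its 4 genes, whereas *Tcf7* took 49.8% to 52.6% and *Tcf7l1* 36.6% to 38.8%. Among the 4 R-spondins, *Rspo2* took 12.3% to 16.2% and *Rspo1* 64.7% to 75.6%. *Nkd1* took 86.9% to 91.2% of the sum with its relative *Nkd2*, and *Axin2* 39.2% to 40.8% of the sum with *Axin1*. *Wnt5a*, *Tcf7*, *Tcf7l1*, *Rspo1*, *Nkd2* and *Axin1* are named here as relatives and were chosen after their values were seen.

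The 4 ligands did not pass the test in either direction. *Wnt2* (ENSMUSG00000010797, chromosome 6, 17988940 to 18030585 on GRCm38) was at 94.3 and 93.8 CPM in *Myh10*+/+ lungs and at 88.5 and 99.9 CPM in *Myh10*-/- lungs. The *Myh10*-/- lungs lay on either side of both *Myh10*+/+ lungs, and the log2 fold change was 0.0028 (SE, the standard error, 0.07, adjusted p = 0.990), with a 95% interval of the fold change from 0.907 to 1.11. *Wnt7b* (ENSMUSG00000022382, chromosome 15, 85535437 to 85582473) was at 40.5 and 40.4 CPM in *Myh10*+/+ lungs and at 37.9 and 36.5 CPM in *Myh10*-/- lungs. Both *Myh10*-/- lungs were below both *Myh10*+/+ lungs, which lay close together (log2 fold change -0.12, SE 0.07, adjusted p = 0.458, 95% interval of the log2 fold change from -0.28 to 0.04).

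*Wnt11*, a ligand that also acts outside the canonical pathway (ENSMUSG00000015957, chromosome 7, 98835112 to 98855195), was at 16.4 and 16.1 CPM in *Myh10*+/+ lungs and at 17.5 and 17.3 CPM in *Myh10*-/- lungs. Its levels in *Myh10*-/- lungs were the higher ones, and the log2 fold change was 0.10 (SE 0.08, adjusted p = 0.572, 95% interval -0.07 to 0.28). *Wnt2b* (ENSMUSG00000027840, chromosome 3, 104945272 to 104961921), the ligand with the fewest reads, was at 6.98 and 5.77 CPM in *Myh10*+/+ lungs and at 8.41 and 7.14 CPM in *Myh10*-/- lungs. The groups did not overlap, but the lower *Myh10*-/- lung was close to the higher *Myh10*+/+ lung, and the log2 fold change of 0.27 (SE 0.15, adjusted p = 0.374) had a 95% interval from -0.04 to 0.59. Read against the whole table, separate groups are common here, since the genotypes did not overlap in 48.3% of all tested genes (23.9% with both *Myh10*-/- lungs above and 24.3% with both below), and they did not overlap in 6 of the 10 Wnt genes, 3 in each direction.

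**Figure D2:**
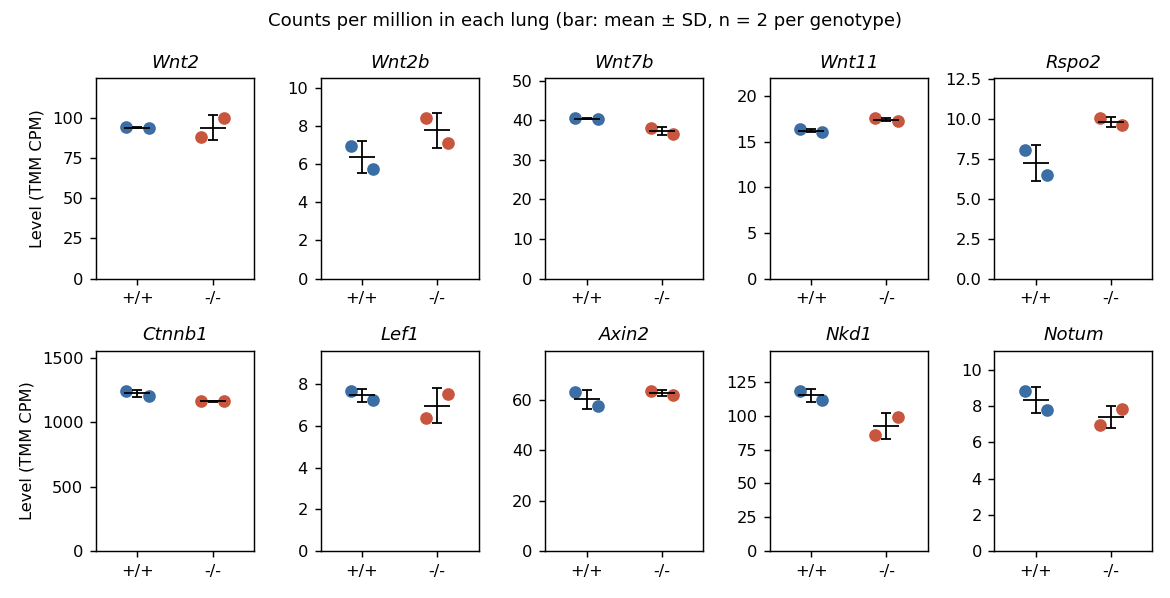
Level of each gene in each lung, in TMM-scaled CPM on axes that start at 0, for *Myh10*+/+ (blue) and *Myh10*-/- (red) lungs; the black line is the mean and the bar its SD, with n = 2 per genotype. Both *Myh10*-/- lungs are below both *Myh10*+/+ lungs for *Nkd1*, *Wnt7b* and *Ctnnb1* and above them for *Rspo2*, *Wnt2b* and *Wnt11*.

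*Rspo2* encodes a secreted agonist that binds LGR receptors and the ubiquitin ligases ZNRF3 and RNF43, which keeps Frizzled receptors at the cell surface. It lies on chromosome 15 from 43020794 to 43170826 (ENSMUSG00000051920) and was at 8.03 and 6.46 CPM in *Myh10*+/+ lungs and at 10.02 and 9.60 CPM in *Myh10*-/- lungs, from 184, 123, 279 and 309 reads. Both *Myh10*-/- lungs were above both *Myh10*+/+ lungs, and the *Myh10*+/+ lungs differed from each other more than the *Myh10*-/- lungs did. The log2 fold change was 0.43 (SE 0.13), the largest in size among the 10 genes, with a 95% interval from 0.15 to 0.71. The unadjusted p from edgeR was 0.00608 and the adjusted p was 0.123, so *Rspo2* did not pass the threshold, and 16.5% of all tested genes had an unadjusted p-value under 0.05.

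The effectors did not pass the test either. *Ctnnb1* (ENSMUSG00000006932, chromosome 9, 120929216 to 120960507) was at 1244 and 1204 CPM in *Myh10*+/+ lungs and at 1161 and 1166 CPM in *Myh10*-/- lungs. The *Myh10*-/- lungs were the lower ones, but not beyond the error of the fit (log2 fold change -0.07, SE 0.09, adjusted p = 0.732), and the 95% interval of the fold change ran from 0.832 to 1.09. β-catenin is regulated mainly through the stability of its protein, which was not measured here. *Lef1* (ENSMUSG00000027985, chromosome 3, 131110471 to 131224356), a TCF/LEF factor that is itself a target of the pathway, was at 7.68 and 7.24 CPM in *Myh10*+/+ lungs and at 6.36 and 7.55 CPM in *Myh10*-/- lungs. *Myh10*-/- lung 2 lay between the *Myh10*+/+ lungs, and the log2 fold change was -0.10 (SE 0.14, adjusted p = 0.769, 95% interval -0.40 to 0.20).

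Among the feedback genes, *Nkd1* fell and *Axin2* and *Notum* did not pass the test. NKD1 binds Dishevelled and restrains Wnt signaling in cells that receive it. *Nkd1* (ENSMUSG00000031661, chromosome 8, 88521354 to 88594884, plus strand) was at 119 and 112 CPM in *Myh10*+/+ lungs and at 85.8 and 99.2 CPM in *Myh10*-/- lungs, which is 115 ± 4.72 and 92.5 ± 9.48 CPM (SD, n = 2 each). Both *Myh10*-/- lungs were lower than both *Myh10*+/+ lungs, and lung 1 was the lower of the *Myh10*-/- lungs. The log2 fold change was -0.32 (SE 0.07, 95% interval -0.47 to -0.16, adjusted p = 0.0475). *Nkd1* ranked 284 by p-value among the 308 genes that passed. Over the 9 alternatives that kept all 4 lungs its adjusted p lay between 2.01e-04 and 0.0506, and it missed the threshold with the size factors of DESeq2 (0.0506). It also missed without *Myh10*+/+ lung 1 (log2 fold change -0.27, adjusted p = 0.193) and without *Myh10*-/- lung 1 (log2 fold change -0.21, adjusted p = 0.0515).

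*Axin2*, which encodes a scaffold of the β-catenin destruction complex, lies on chromosome 11 from 108920349 to 108950783 (ENSMUSG00000000142) and was at 62.9 and 57.4 CPM in *Myh10*+/+ lungs and at 63.6 and 61.9 CPM in *Myh10*-/- lungs. The genotypes overlapped, and the log2 fold change was 0.06 (SE 0.07, adjusted p = 0.743, 95% interval -0.10 to 0.22). Since the interval of *Axin2* starts at -0.10, a fall as large as that of *Nkd1* lay outside it. *Notum* encodes a secreted esterase that removes the lipid from Wnt ligands and lies on chromosome 11 from 120653788 to 120661175 (ENSMUSG00000042988). It was at 8.86 and 7.82 CPM in *Myh10*+/+ lungs and at 6.97 and 7.86 CPM in *Myh10*-/- lungs. *Myh10*-/- lung 2 lay just above the lower *Myh10*+/+ lung, and the log2 fold change of -0.17 (SE 0.13, adjusted p = 0.549) had a 95% interval from -0.45 to 0.11, which includes the fall of *Nkd1*.

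The ratio of *Nkd1* to *Axin2* within a lung does not depend on the scaling between lungs. Per length, *Nkd1* was at 2.28 and 2.35 times the level of *Axin2* in *Myh10*+/+ lungs and at 1.63 and 1.94 times in *Myh10*-/- lungs. Both *Myh10*-/- lungs were below both *Myh10*+/+ lungs, and since the smallest two-sided p of an exact permutation test of 2 against 2 lungs is 0.333, the ratio is given as a description. The ratio of *Axin2* to *Notum* was 3.11 and 3.21 in *Myh10*+/+ lungs and 3.99 and 3.44 in *Myh10*-/- lungs.

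**Figure D3:**
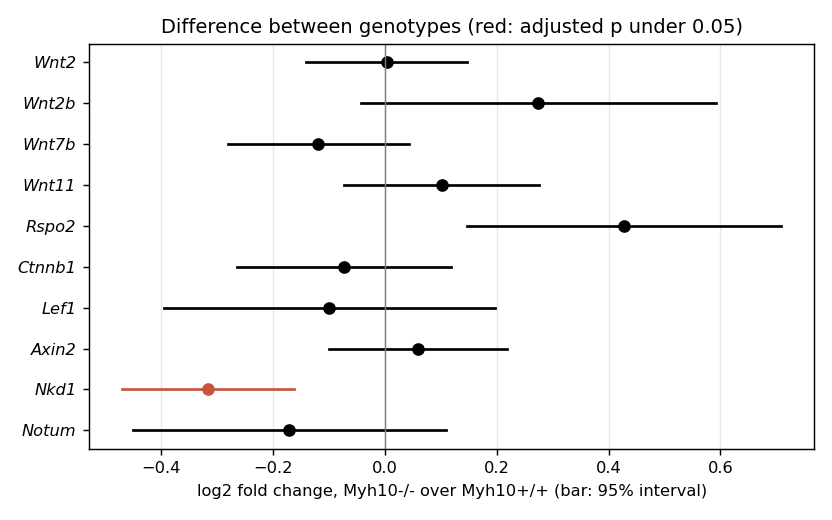
Log2 fold change of each gene, *Myh10*-/- over *Myh10*+/+ lungs, as a point with its 95% interval as a bar; red marks an adjusted p-value under 0.05 in the quasi-likelihood test of edgeR. The interval of *Nkd1* (-0.47 to -0.16) and that of *Rspo2* (0.15 to 0.71) leave out 0, and *Nkd1* alone is red.

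Over the 10 genes, 5 log2 fold changes were above 0 and 5 below (50.5% and 49.5% of all tested genes), and the median log2 fold change was -0.04 (0.0018 for all tested genes). Of the 10, 1 gene passed the threshold in the lower direction, beside 1.34% of all tested genes, and 0 of 10 in the higher direction, beside 0.298%. At an unadjusted p-value under 0.05 there were 2 of the 10 genes, *Rspo2* higher and *Nkd1* lower, beside 7.52% and 9.02% of all tested genes. With the Wald test of DESeq2, *Nkd1* again was the gene that passed (log2 fold change -0.32, adjusted p = 0.0120), and that tool gave no adjusted p for *Wnt2b*, *Rspo2*, *Lef1* and *Notum*, which its filter on low counts removed. *Nkd1* and *Rspo2* are shown under each alternative in the plot of processing alternatives.

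**Figure D4:**
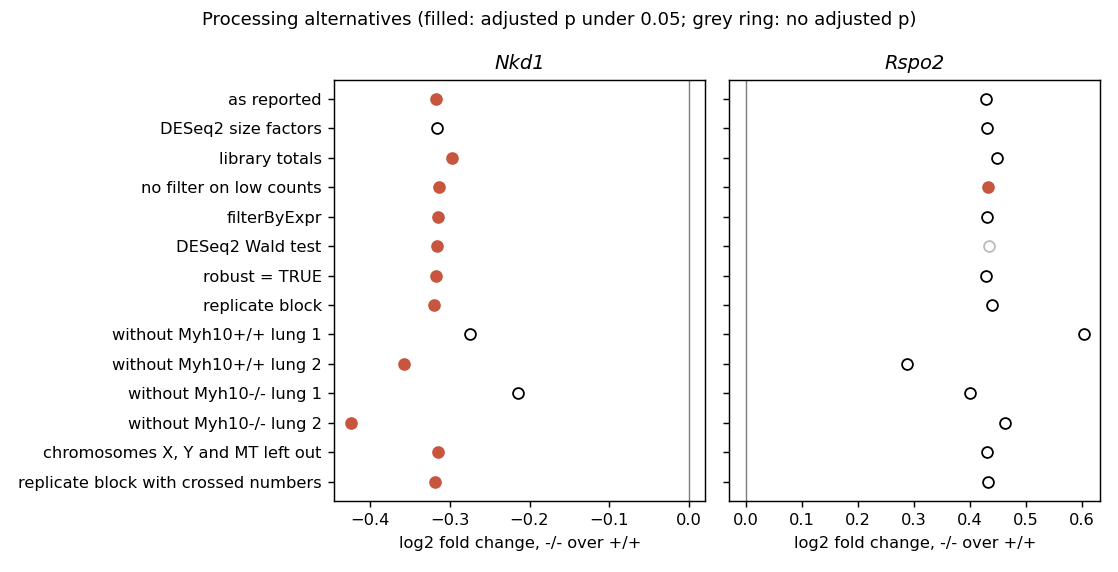
Log2 fold change of *Nkd1* (left) and *Rspo2* (right), *Myh10*-/- over *Myh10*+/+ lungs, as reported and under each of 13 processing alternatives; filled points have an adjusted p-value under 0.05, open points do not, and a grey ring marks a gene without an adjusted p. *Nkd1* stays between -0.42 and -0.21 and *Rspo2* between 0.29 and 0.60.

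Some markers of several cell types were also lower in *Myh10*-/- lungs. In bulk tissue, fewer cells of a type and less RNA per cell cannot be told apart. Of 5 epithelial markers, *Cdh1* and *Krt8* were lower (log2 fold changes -0.30 and -0.33, adjusted p = 0.0178 and 0.00984 from edgeR) and 3 did not pass. For these 3, *Epcam*, *Nkx2-1* and *Sftpc*, the log2 fold changes were -0.04, 0.02 and -0.41. The summed level of these 5 genes, most of it from *Sftpc*, was 6773 to 6948 CPM in *Myh10*+/+ lungs and 4914 to 5786 CPM in *Myh10*-/- lungs. Of 3 mesothelial markers *Msln* was lower (-0.53, adjusted p = 0.0196 from edgeR), with sums, most of them from *Msln*, of 303 to 330 and 218 to 269 CPM. *Upk3b* and *Wt1* did not pass (-0.11 and 0.15), and both *Myh10*-/- lungs were higher for *Wt1*. Of 4 cardiac muscle markers *Myh6*, *Myl7* and *Tnnt2* were lower, with sums of 125 to 162 and 86.2 to 94.6 CPM, and of 4 erythroid markers *Alas2* was lower, with sums of 1403 to 1793 and 1217 to 1395 CPM.

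Of 5 mesenchymal (2561 to 2612 against 2454 to 2458 CPM), 4 smooth muscle (616 to 667 against 597 to 599 CPM), 4 endothelial (1092 to 1150 against 1020 to 1061 CPM) and 3 leukocyte markers (56.8 to 60.0 against 49.8 to 53.3 CPM), 0 passed the test of edgeR in either direction. At an unadjusted p-value under 0.05 there were 1, 0, 2 and 2 of them. All of these were lower in *Myh10*-/- lungs, beside 9.02% of all tested genes that were lower at this threshold. None of the marker genes was at 0 in any lung. The part of these cell types in the level of *Nkd1* was not tested.

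The promoters of *Nkd1* and *Axin2* are shown because these feedback genes gave different results, and that of *Wnt11* because it holds the letters sought. The windows run from 250 bases before to 50 bases after the RefSeq start sites and were taken from RefSeq (GRCm38.p6), which gave 12 windows for 7 of the 10 genes. Capitals mark the letters that TCF/LEF factors are known to bind, on either strand. These were CTTTGAA (held by 5.14% of all windows), CTTTGAT (3.73%), CTTTGTA (3.63%) and CTTTGTT (5.85%), all starting with the shared core CTTTG, and the windows of *Nkd1* and *Axin2* have none of them. The windows are chr8:88527383-88527682 (plus strand) for *Nkd1*, chr11:108920099-108920398 (plus strand) for *Axin2* and chr7:98834862-98835161 (plus strand) for *Wnt11*.
Nkd1: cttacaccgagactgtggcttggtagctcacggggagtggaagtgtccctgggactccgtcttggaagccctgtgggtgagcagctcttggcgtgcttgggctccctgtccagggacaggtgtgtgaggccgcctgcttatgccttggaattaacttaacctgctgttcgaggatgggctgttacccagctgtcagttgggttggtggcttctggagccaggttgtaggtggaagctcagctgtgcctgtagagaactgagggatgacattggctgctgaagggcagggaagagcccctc
Axin2: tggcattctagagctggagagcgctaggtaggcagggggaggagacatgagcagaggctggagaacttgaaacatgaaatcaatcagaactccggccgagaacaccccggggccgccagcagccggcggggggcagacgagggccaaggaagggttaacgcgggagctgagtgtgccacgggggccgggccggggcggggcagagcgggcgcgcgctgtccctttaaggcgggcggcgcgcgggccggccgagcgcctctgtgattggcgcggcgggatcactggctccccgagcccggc
Wnt11: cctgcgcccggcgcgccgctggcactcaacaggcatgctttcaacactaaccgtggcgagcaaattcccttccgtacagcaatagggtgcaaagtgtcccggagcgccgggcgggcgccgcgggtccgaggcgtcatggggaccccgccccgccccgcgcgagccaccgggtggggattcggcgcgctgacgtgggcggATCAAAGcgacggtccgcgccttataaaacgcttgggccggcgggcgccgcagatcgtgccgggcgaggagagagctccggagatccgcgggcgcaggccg

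In the window of *Wnt11* the letters are ATCAAAG, which reads CTTTGAT on the other strand, with the first base 51 bases before the start. Of the 12 windows 2 held such letters, the other one at a downstream start of *Lef1* (chr3:131156044-131156343, TACAAAG), and 16.9% of all 32851 RefSeq windows did. The shorter CTTTG was in 5 of the 12 windows and in 53.9% of all windows. The window of *Nkd1* had a GC content of 58.3% with 6 CpG and that of *Axin2* 70.0% with 31 CpG, where the median of all windows was 52.7% with 7 CpG. The RefSeq start of *Nkd1* lies inside the gene as GENCODE draws it. Its window begins at 88527383 and the GENCODE gene at 88521354, so the window does not cover the GENCODE start. Windows of neighboring starts of *Lef1* and *Ctnnb1* overlap. A match of letters is a description, and TCF/LEF sites outside these windows were not searched.

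The other genes of the pathway were read from the same test, in lists of ligands, secretion factors, receptors, R-spondins and their receptors, secreted antagonists, destruction complex and Dishevelled genes, nuclear partners and further targets. Of 85 genes 73 could be tested, and by edgeR 0 passed the threshold in either direction, beside 1.64% of all tested genes. The Wald test of DESeq2 gave an adjusted p for 49 of the 73, of which 0 passed, and none for the other 24, among them *Fzd3*, *Wnt4*, *Wnt3a* and *Rspo3*, which could not pass there and had unadjusted p-values under 0.05. In all, 13 (7 higher and 6 lower) had an unadjusted p-value under 0.05 in edgeR, beside 16.5% of all tested genes. The median log2 fold change of all 73 was 0.02. Without *Myh10*-/- lung 2, 71 of the other pathway genes could be tested, and their log2 fold changes moved. They were then 0.51 for *Fzd3*, 0.37 for *Sfrp2*, -0.31 for *Dkk3*, 0.23 for *Tle2*, -0.39 for *Apcdd1* and -1.12 for *Wnt3a*. Smaller values than with all 4 lungs were seen for *Rspo3* (0.71) and *Rspo4* (0.04). The values below are those of the genes with the lowest p-values in each list.

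Of the other ligands 8 of 15 could be tested. *Wnt4* was at 4.23 and 5.98 CPM in *Myh10*+/+ lungs and at 3.02 and 3.39 CPM in *Myh10*-/- lungs, with a log2 fold change of -0.66 (SE 0.20, unadjusted p = 0.00637 and adjusted p = 0.125 from edgeR). *Wnt3a* was at 9.56 and 8.56 CPM in *Myh10*+/+ lungs and at 4.17 and 7.33 CPM in *Myh10*-/- lungs, with a log2 fold change of -0.64 (SE 0.20, adjusted p = 0.142). The *Myh10*-/- lungs were lower than the *Myh10*+/+ lungs for both ligands, and *Myh10*-/- lung 1 was the lower one. For *Wnt3a* the value moved with the *Myh10*-/- lung left out, to -1.12 (adjusted p = 3.26e-04) without lung 2 and to -0.31 (adjusted p = 0.390) without lung 1, and it passed in 2 of the 9 alternatives with all 4 lungs. *Wnt4* passed without *Myh10*+/+ lung 1 (-0.90, adjusted p = 0.0389) and was at -0.40 (adjusted p = 0.617) without *Myh10*+/+ lung 2. For *Porcn* and *Wls*, which add the lipid to Wnt ligands and carry them to the cell surface, the log2 fold changes were 0.12 (adjusted p = 0.487) and -0.04 (adjusted p = 0.730).

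Of 14 receptors and co-receptors, *Fzd3* had the lowest adjusted p of the 73 genes. It was at 10.3 and 9.76 CPM in *Myh10*+/+ lungs and at 14.3 and 12.6 CPM in *Myh10*-/- lungs, with a log2 fold change of 0.42 (SE 0.11, adjusted p = 0.0733), and for *Fzd5* the log2 fold change was -0.16 (adjusted p = 0.413). *Rspo3* is a further R-spondin and was at 0.960 and 0.787 CPM in *Myh10*+/+ lungs and at 1.44 and 2.05 CPM in *Myh10*-/- lungs, from 15 to 66 reads, with a log2 fold change of 0.99 (SE 0.31, adjusted p = 0.140). For *Rspo4* it was 0.46 (adjusted p = 0.401), with an interval from -0.10 to 1.02, and it rested on *Myh10*-/- lung 2, since it was 0.04 without that lung and 0.76 without lung 1. Both *Myh10*-/- lungs were above both *Myh10*+/+ lungs for *Rspo1*, *Rspo2* and *Rspo3*, as for 23.9% of all tested genes. For *Rspo1* the nearest lungs were at 15.25 and 15.23 CPM, and for *Rspo4* the genotypes overlapped. *Rspo1*, which had the largest share of the family, was at 15.23 and 15.07 CPM in *Myh10*+/+ lungs and at 16.63 and 15.25 CPM in *Myh10*-/- lungs (log2 fold change 0.07 with an SE of 0.09, adjusted p = 0.735).

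The secreted antagonist *Sfrp2*, which binds Wnt ligands, was at 18.3 and 16.3 CPM in *Myh10*+/+ lungs and at 22.4 and 20.3 CPM in *Myh10*-/- lungs (log2 fold change 0.30, SE 0.09, adjusted p = 0.115). *Dkk3*, of the Dickkopf family, was at 87.3 and 85.9 CPM and at 69.9 and 79.9 CPM (log2 fold change -0.21, SE 0.07, adjusted p = 0.173). Among destruction complex and Dishevelled genes, the log2 fold changes of *Dvl3* and *Gsk3a* were 0.17 (adjusted p = 0.321) and -0.12 (adjusted p = 0.418). Among nuclear partners, *Tle2*, which encodes a co-repressor of TCF/LEF factors, was at 102 and 104 CPM in *Myh10*+/+ lungs and at 120 and 116 CPM in *Myh10*-/- lungs (log2 fold change 0.20, SE 0.05, adjusted p = 0.0875), and for *Bcl9l*, a co-activator of β-catenin, it was 0.13 (adjusted p = 0.267).

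Of the further targets, *Myc* and *Apcdd1* had the lowest p-values and differed in sign. *Myc* was at 19.7 and 16.9 CPM in *Myh10*+/+ lungs and at 22.4 and 22.5 CPM in *Myh10*-/- lungs, with a log2 fold change of 0.29 (SE 0.09, adjusted p = 0.114). *Apcdd1*, which encodes a membrane inhibitor of Wnt signaling, was at 26.0 and 24.5 CPM in *Myh10*+/+ lungs and at 19.2 and 22.6 CPM in *Myh10*-/- lungs, with a log2 fold change of -0.27 (SE 0.09, adjusted p = 0.154). The targets *Axin2*, *Nkd1*, *Notum*, *Lef1*, *Myc* and *Apcdd1* had log2 fold changes of 0.06, -0.32, -0.17, -0.10, 0.29 and -0.27, of which that of *Nkd1* passed the threshold. *Myc* and *Apcdd1* do not stand for their list. Of its 10 tested genes, 8 had a log2 fold change above 0 and 2 below, with a median of 0.09, beside 50.5% above 0 among all tested genes.

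**Figure D5:**
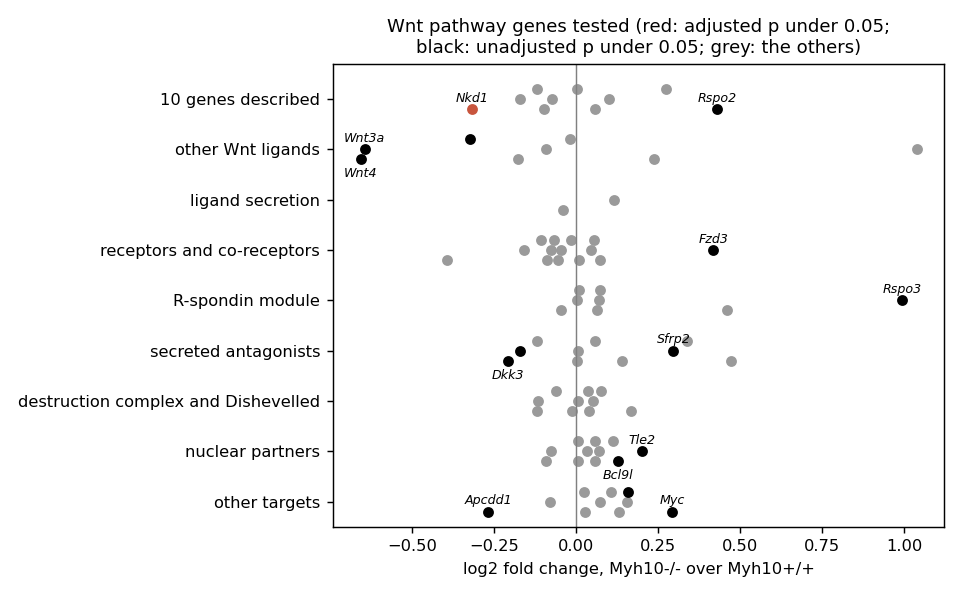
Log2 fold change, *Myh10*-/- over *Myh10*+/+ lungs, of the 10 genes described and of the 73 other Wnt pathway genes tested, by list; each point is a gene, red marks an adjusted p-value under 0.05, black an unadjusted p-value under 0.05 and grey the others. *Nkd1* is the red point, and 13 points of the other lists are black, the highest of them *Rspo3* at 0.99 and the lowest *Wnt4* at -0.66.

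The counts of some of these genes carry a limit from the annotation. The sources do not state whether counting used strand, and exons of 6 of the 10 genes overlap a gene on the opposite strand, over 918 bp for *Notum*, 1208 bp for *Lef1*, 759 bp for *Ctnnb1*, 364 bp for *Wnt11*, 324 bp for *Wnt7b* and 209 bp for *Axin2*. The share of windows of 75 bases, the read length, that also occur in another gene was 26.2% for *Notum*, 12.7% for *Lef1*, 11.1% for *Ctnnb1*, 6.79% for *Wnt11*, 2.86% for *Wnt7b* and 1.11% for *Axin2*, and these counts are uncertain to that extent. No window of *Nkd1*, *Rspo2*, *Wnt2* or *Wnt2b* occurred in a transcript of another gene.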

How the data were processed

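RNA from the left lung lobes of 4 E17 embryos was sequenced by the authors as single-end reads of 75 bases from stranded mRNA libraries. The reads were trimmed with Reaper, aligned to mm10 (GRCm38) with STAR 2.4.0a and counted on exons with featureCounts 1.5.1, which left out reads overlapping several genes or aligning to several regions. The deposited values are raw counts per Ensembl gene, not normalized. The study's own comparison used DESeq2 1.14.1.

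Genotypes came from the sample titles. The study required a mean of 5 reads for a call, together with a 2-fold change. Here genes whose mean count was 5 or more entered the test and no minimum fold was set, so *Nkd1* (0.803 times) would not meet the study's criteria. The genes were tested with edgeR 4.0.16 in R 4.3.3 (TMM, glmQLFit with robust = FALSE, glmQLFTest, Benjamini-Hochberg adjustment). Standard errors are the log2 fold change divided by the square root of F. Lungs of a genotype were not one library counted again (chi-square divided by its degrees of freedom, 7.32 and 12.9), so each was a replicate. These values include chromosomes X and Y, and *Xist* differed strongly between the lungs of each genotype. They are therefore not a measure of the spread on the other chromosomes. No source used here says whether the embryos were littermates, and the p-values measure only the spread between these lungs.

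The alternatives were the size factors of DESeq2, library totals, no filter, filterByExpr, DESeq2 1.42.0, robust = TRUE, the replicate number as a block, leaving out each lung, leaving out chromosomes X, Y and MT, and, added after the data were seen, the crossed numbers as a block. The crossed block joined the lungs high in *Xist* (*Myh10*+/+ lung 1 and *Myh10*-/- lung 2) and the lungs low in it. It therefore also adjusted for that difference. Leaving out a lung leaves 1 lung in a genotype, which is then assumed to vary like the others. The genotypes are then also unequal in lungs high and low in *Xist*. The test was tested on simulated data. It recovered 42 of 67 changes with a log2 size of 0.5, 59 of 67 with 1 and 66 of 66 with 2. Of the 18515 genes fitted, 12 unchanged ones passed. Changes smaller than 0.5 were not simulated, so a gene that did not pass may still differ. Exon lengths, positions and transcripts are from GENCODE M21 (GRCm38), which held 45143 of the 45706 gene IDs.

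All 10 genes are named, and of each further pathway list the 2 genes with the lowest p-values and any with an adjusted p-value under 0.05, as are markers past that threshold. The 10 genes and the lists were chosen with earlier results of these data known.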

Additional observations from a re-analysis of the deposited data

How the results depend on the processing

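*Nkd1* passed an adjusted p-value of 0.05 in 8 of 9 alternatives with all 4 lungs, with log2 fold changes from -0.32 to -0.30. The number of the 10 genes that passed was 1, but 0 with the size factors of DESeq2 and 2, *Nkd1* and *Rspo2*, with no filter on low counts, where the unadjusted p of *Rspo2* was 4.71e-04 in place of 0.00608. Without one lung at a time it was 0 to 1, the number of other pathway genes that passed was 0 to 7, and that of all genes 206 to 1643, the highest without *Myh10*-/- lung 2. Without a filter 7 of 82 other pathway genes passed and 1162 of 28549 genes in all. With robust = TRUE 474 of 18763 genes passed in all. The causes were not tested.

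The replicate numbers were not taken as pairs: the deviations of same-numbered lungs had a correlation across genes of -0.297, and of 0.011 without chromosomes X and Y. With the replicate block 710 of 18763 genes passed, 2 of the 73 other pathway genes (*Fzd3* and *Sfrp2*) and 1 of the 10. With the crossed numbers as a block, 415 of 18763 genes passed, 1 of the 73 other pathway genes and 1 of the 10. With library totals 67.7% of 344 genes were lower, against 81.8% of 308.

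The sign turned for *Wnt2* with the replicate block (log2 fold change -0.00037), and over the fits without a lung it ran from -0.086 to 0.089 for *Wnt2*, from -0.0055 to 0.13 for *Axin2*, from -0.23 to 0.017 for *Lef1* and from -0.08 to 0.03 for the median of the 10 genes. *Wnt2b*, *Rspo2*, *Lef1* and *Notum* had 110 to 309 reads in a lung and standard errors of 0.13 to 0.15, and the effect of depth was not tested.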

Other observations

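The Frizzled genes encode the receptors of Wnt ligands. Of the summed level per length of 10 Frizzled genes, *Fzd2* took 24.8% to 26.0% over the 4 lungs, *Fzd1* 21.7% to 23.1% and *Fzd7* 20.5% to 21.5%, while *Fzd3*, whose adjusted p was the lowest of the other pathway genes, took 0.773% and 0.750% in *Myh10*+/+ lungs and 1.10% and 0.974% in *Myh10*-/- lungs. The sum was 104 and 102 CPM per kb in *Myh10*+/+ lungs and 101 CPM per kb in both *Myh10*-/- lungs.

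In *Nkd1*, *Wnt3a*, *Apcdd1* and *Dkk3*, *Myh10*-/- lung 1 was lower than *Myh10*-/- lung 2, with 85.8 and 99.2, 4.17 and 7.33, 19.2 and 22.6, and 69.9 and 79.9 CPM. The same lung had the lower level of *Sftpc* (3874 and 4748 CPM) and of *Msln* (129 and 169 CPM). Of the other epithelial markers, *Cdh1* and *Krt8* were also lower in *Myh10*-/- lung 1. *Epcam* (147.9 and 138.5 CPM) and *Nkx2-1* (454.8 and 447.4 CPM) were higher in it. These 2 lungs also differed in *Xist* (4.10 and 4460 CPM). The genes of this comparison were picked after their values were seen, and no relation between them was tested.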
